A study of Rattus norvegicus with 20 samples.

Results

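The axon regeneration-associated genes described here are 10 rat genes: Atf3, Jun, Klf6, Sox11, Socs3, Gadd45a, Gal, Sprr1a, Gap43 and Stmn2. They were chosen by name, each matched a single entry of the expression table, and together they make up 10 of its 30443 entries. Expression was measured by RNA-seq as FPKM, a fragment number scaled by transcript length and by all mapped fragments of the library, and the table holds no value under 0.1. All 10 genes reached the 1 FPKM in at least 1 of 20 libraries that was needed for testing, as did 15210 entries in all. Sprr1a did so in 3 libraries, all of region 1, and Sox11 in white matter libraries alone. Where such a gene entered testing only through the group in which it was high, its values are described without a test and it is left out of the counts.

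The libraries came from 4 wild-type adult female Long-Evans rats of about 6 to 8 months, each sampled in 5 regions. Every rat had a hemicontusion of the spinal cord at cervical level 4, made with a displacement of 0.7 mm, and received an electrode array 2 weeks later in the motor cortex of the hemisphere opposite the injury. In the 2 stimulated rats, current was passed for 1 week, 5 hours a day, at 10 Hz in cycles of 5 minutes on and 2 minutes off, at 80% of the movement threshold. The 2 control rats had the same injury and implant and were connected to the stimulator without current. Region 1 was a block of white matter under the electrodes and region 2 its counterpart in the other hemisphere, while regions 3, 4 and 5 were spinal cord rostral to the lesion, at its epicenter and caudal to it. All rats carried both the injury and the implant, so neither has a group without it among these libraries.

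Many of these genes are switched on in the cell bodies of peripheral neurons after their axons are cut, a state in which axons regrow, and much less so in central neurons such as those of the corticospinal tract. Atf3, Jun, Klf6 and Sox11 encode transcription factors of that program. Gap43 and Stmn2 encode growth cone proteins, Sprr1a an injury-induced protein of regrowing axons, and Gal the neuropeptide galanin. Socs3 encodes a feedback inhibitor of cytokine signaling that restrains regrowth, and Gadd45a a stress sensor. None of the transcription factors, nor Socs3 and Gadd45a, is restricted to neurons, and activated glia and immune cells are known to express several of them.

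The labels were first checked against marker genes. Summed over 5 cortical neuron markers, regions 1 and 2 held 262 to 384 FPKM and the cord 2.26 to 15.9 FPKM, so the blocks labelled as white matter contained RNA of cortical neurons. Markers of spinal cord identity summed to 0.5 to 0.860 FPKM in regions 1 and 2 and to 44.7 to 80.4 FPKM in regions 3 to 5. Oligodendrocyte markers were far higher in the cord, at 7096 to 10380 FPKM against 662 to 2778 FPKM. The white matter of stimulated rat 2 stood apart: in region 2 its 6 microglia and macrophage markers summed to 191 FPKM against 26.0 to 31.4 FPKM in the other rats, and in region 1 its neutrophil markers summed to 112 FPKM against 0.450 to 1.84 FPKM. The calls and correlations that the text turns on are therefore also given without that rat. In tissue pieces such as these, a lower level from fewer cells of a type and one from less RNA per cell cannot be told apart.

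The 10 genes covered most of the range of expression. Averaged over the 20 libraries, Stmn2 and Gap43 stood at 66.1 and 55.3 FPKM, above 96.4% and 95.4% of the genes tested. Jun, Klf6 and Gadd45a followed at 19.7, 11.1 and 10.6 FPKM. Socs3, Gal and Atf3 averaged 4.76, 3.67 and 2.48 FPKM, and Sox11 and Sprr1a 0.957 and 0.411 FPKM. The highest library was 1.85 times the lowest for Stmn2, 3.18 times for Gap43 and 146 times for Socs3.

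**Figure D1:**
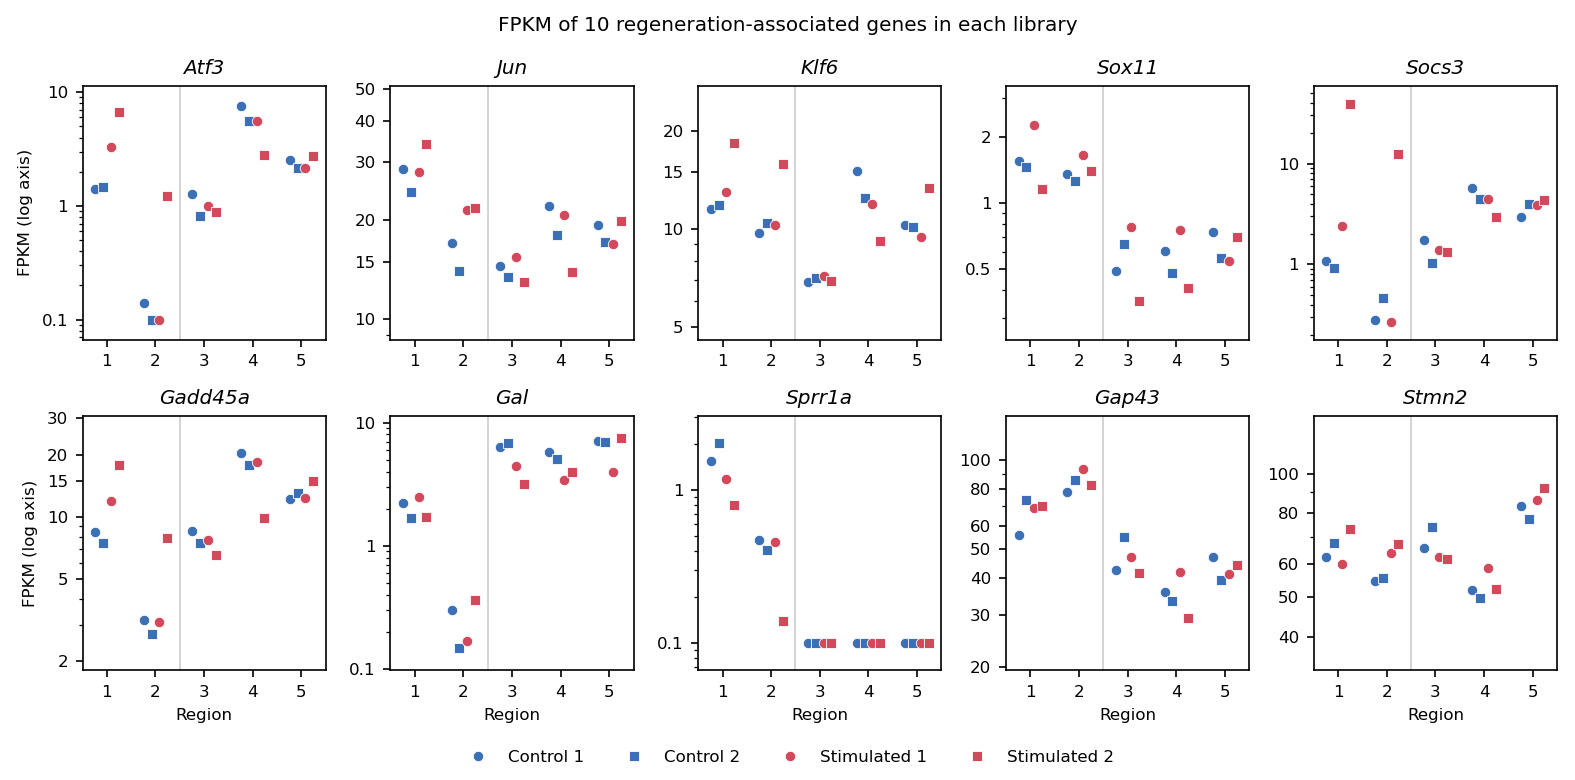
FPKM of each gene in each library on a log axis, by region (1 and 2, white matter under the electrodes and opposite; 3, 4 and 5, cord rostral to, at and caudal to the lesion), with blue for control and red for stimulated rats, circles for rat 1 and squares for rat 2 of each group. Atf3, Gal and Sprr1a differ most between regions 1 and 2, Stmn2 is nearly level, and the square of stimulated rat 2 stands at 12.4 FPKM for Socs3 in region 2.

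Promoter sequences were available in RefSeq (GRCr8) for 6 of the 10 genes: Sprr1a, Gal, Gadd45a, Sox11, Klf6 and Socs3. The 250 bases before the start are printed for Sprr1a, Gal and Gadd45a because Gal and Gadd45a were called higher under the electrodes and Sprr1a was higher there in 4 of 4 rats. All 3 lie on the minus strand, at chr2:180752626-180752875, chr1:210084573-210084822 and chr4:97486800-97487049. Each is written 5′ to 3′ and ends at the base before the start, position -1.
Sprr1a: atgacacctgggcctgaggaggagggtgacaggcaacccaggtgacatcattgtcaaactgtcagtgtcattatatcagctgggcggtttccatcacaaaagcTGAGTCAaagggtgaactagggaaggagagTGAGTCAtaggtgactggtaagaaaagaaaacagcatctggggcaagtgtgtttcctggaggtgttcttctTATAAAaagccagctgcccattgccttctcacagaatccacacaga
Gal: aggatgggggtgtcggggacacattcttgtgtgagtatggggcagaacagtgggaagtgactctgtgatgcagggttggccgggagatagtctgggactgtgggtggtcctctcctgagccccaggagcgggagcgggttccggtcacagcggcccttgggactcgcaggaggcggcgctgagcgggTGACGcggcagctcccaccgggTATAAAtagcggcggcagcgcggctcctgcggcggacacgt
Gadd45a: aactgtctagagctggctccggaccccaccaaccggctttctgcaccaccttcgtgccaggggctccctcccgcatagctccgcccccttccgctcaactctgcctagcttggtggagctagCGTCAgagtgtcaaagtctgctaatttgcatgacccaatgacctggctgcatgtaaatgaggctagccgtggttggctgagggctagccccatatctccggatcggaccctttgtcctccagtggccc
Capitals mark matches, on either strand, to motifs of AP-1 (TGANTCA), the cyclic AMP response element (TGACGTCA) and its half-site (TGACG), STAT (TTCNNNGAA) and the TATA box (TATAAA). Sprr1a held a pair of AP-1 matches, from -147 to -141 and from -117 to -111, and a TATA box from -46 to -41. Gal held a half-site from -63 to -59 and a TATA box from -41 to -36, and Gadd45a a half-site on the other strand from -128 to -124. Atf3 and Jun are proteins of the AP-1 family and its relatives. Over the 6 promoters, AP-1 was matched in 1, the half-site in 2, the TATA box in 2 and the full response element and STAT in 0. The start used for Socs3 lay 1207 bases from the edge of its annotated gene, so its window may not be the bases before the gene. Its lack of a match is therefore not read as that of the Socs3 promoter. Of all 33469 promoters, 6.34% matched AP-1, 1.59% the full element, 18.2% the half-site, which the full element also contains, 7.67% STAT and 12.9% the TATA box. A match is a description of these letters and no measure of binding.

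Region 1 against region 2 compares the white matter under the electrodes with the other hemisphere of the same rats. Atf3, Gal, Gadd45a and Jun were higher under the electrodes and passed the test, 4 of the 9 genes other than Sprr1a, against 6.86% of all genes called higher and 8.61% called in either direction. None of the 9 was called lower by limma, as 1.76% of all genes were. The median log2 fold change was 0.64 over the 9 genes and 0.06 over all genes tested. The side of the implant, the hemisphere opposite the cord injury and, in the stimulated rats, the side of the current are the same side, so their shares in this difference cannot be told apart.

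Values of a region are given in the order control rat 1, control rat 2, stimulated rat 1 and stimulated rat 2. Atf3, the damage-induced factor that most sharply marks injured sensory neurons, stood at 1.42, 1.46, 3.32 and 6.68 FPKM in region 1 and at 0.139, 0.1, 0.1 and 1.22 FPKM in region 2. Its regions did not overlap, and region 2 was near the floor of the table in all rats but stimulated rat 2. The log2 fold change was 3.68 (SE 0.62, adjusted p = 0.00300, limma on all 20 libraries), and within rats the difference ran from 2.46 to 5.05. With the region 2 values at the floor, the size depended on the scale, and on log2(FPKM + 1) it was 1.50.

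Galanin is made by few adult forebrain neurons and is induced in many neurons after axotomy. Gal stood at 2.24, 1.68, 2.47 and 1.73 FPKM in region 1 and at 0.299, 0.147, 0.167 and 0.362 FPKM in region 2. The lowest library under the electrodes was thus well above the highest of the other side, and stimulated rat 2 did not stand apart. Gal was 8.82-fold higher in region 1 (log2 fold change 3.14, SE 0.30, adjusted p = 2.2e-05), and 1.28 on log2(FPKM + 1).

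Sprr1a, which is scarcely expressed in intact neurons, stood at 1.56, 2.02, 1.18 and 0.799 FPKM in region 1 and at 0.475, 0.403, 0.454 and 0.140 FPKM in region 2. Again the regions did not overlap, but here stimulated rat 2 was the lowest of both. The means of the log2 values differed by 1.98, or 3.95-fold, and by 0.78 on log2(FPKM + 1), with no test given because the 3 libraries at 1 FPKM or more are all of region 1. Sprr1a belongs to a gene cluster of similar proteins, so reads shared with its relatives make its level uncertain.

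Gadd45a stood at 8.41, 7.45, 12.0 and 17.9 FPKM in region 1 and at 3.16, 2.72, 3.09 and 7.91 FPKM in region 2. The regions overlapped through stimulated rat 2, whose region 2 value exceeded that of control rat 2 in region 1. Gadd45a was 2.83-fold higher (log2 fold change 1.50, SE 0.30, adjusted p = 0.00750), and higher in 4 of 4 rats. Jun, the AP-1 factor needed for regrowth of several axon types, stood at 28.6, 24.4, 28.0 and 34.1 FPKM against 17.1, 14.0, 21.4 and 21.8 FPKM. Its regions did not overlap, although the change was small, 1.56-fold (log2 fold change 0.64, SE 0.15, adjusted p = 0.0139).

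The other 5 genes were not called. Socs3 stood at 1.08, 0.912, 2.42 and 39.2 FPKM in region 1 and at 0.280, 0.465, 0.269 and 12.4 FPKM in region 2. It was higher under the electrodes in 4 of 4 rats, but the spread of stimulated rat 2 from the others left an SE of 1.06 on a log2 fold change of 1.93 (adjusted p = 0.270). Gap43 was the exception in direction, at 56.1, 73.3, 68.9 and 69.8 FPKM in region 1 and 78.3, 85.7, 93.6 and 82.2 FPKM in region 2. All region 2 values lay above all region 1 values, with a log2 fold change of -0.35 (SE 0.11, adjusted p = 0.0635). Klf6, Sox11 and Stmn2 had log2 fold changes of 0.24, 0.15 and 0.13, with adjusted p-values of 0.408 to 0.763. Counted by overlap alone, 3 of the 9 members were higher without overlap and 1 lower, against 7.57% of all genes in either direction.

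The calls depended on the libraries in the fit. Without stimulated rat 2, 7 of the 9 genes were called, Klf6, Socs3 and, as lower, Gap43 in addition, against 24.2% of all genes. There Socs3 had a log2 fold change of 2.03 (SE 0.33, adjusted p = 0.000811). In the control rats alone, which received no current, 5 of the 9 were called higher, against 7.99% of all genes, with log2 fold changes of 3.61 for Atf3, 3.21 for Gal, 1.46 for Socs3, 1.43 for Gadd45a and 0.77 for Jun. With the spread taken from the 8 white matter libraries alone, 0 of the 9 were called and 0.0% of all genes, and the adjusted p-value was 0.0509 for Gal and 0.206 for Atf3. Leaving out control rat 1, control rat 2 or stimulated rat 1 left 2, 1 and 1 of the 9 called, with Gal among them each time, against 0.625%, 0.638% and 0.171% of all genes. The stimulated rats alone gave 0 calls, and 0.0% of all genes.

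Markers of other cells moved with this comparison. The 6 microglia and macrophage markers summed to 86.8, 72.9, 121 and 216 FPKM in region 1 and to 31.4, 26.0, 30.2 and 191 FPKM in region 2, and 1 of 6, Cd68, was called higher. All 4 tested fibroblast markers, 4 of 5 Schwann cell markers and 2 of 5 astrocyte markers were called higher, while of the 6 pan-neuronal markers 1 was called lower and of the 5 cortical neuron markers 0 were called. When stimulated rat 2 was left out, all 6 microglia and macrophage markers, all 4 fibroblast markers, 3 of 5 Schwann cell markers and 3 of 5 astrocyte markers were called higher. Their part in the result was not tested.

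**Figure D2:**
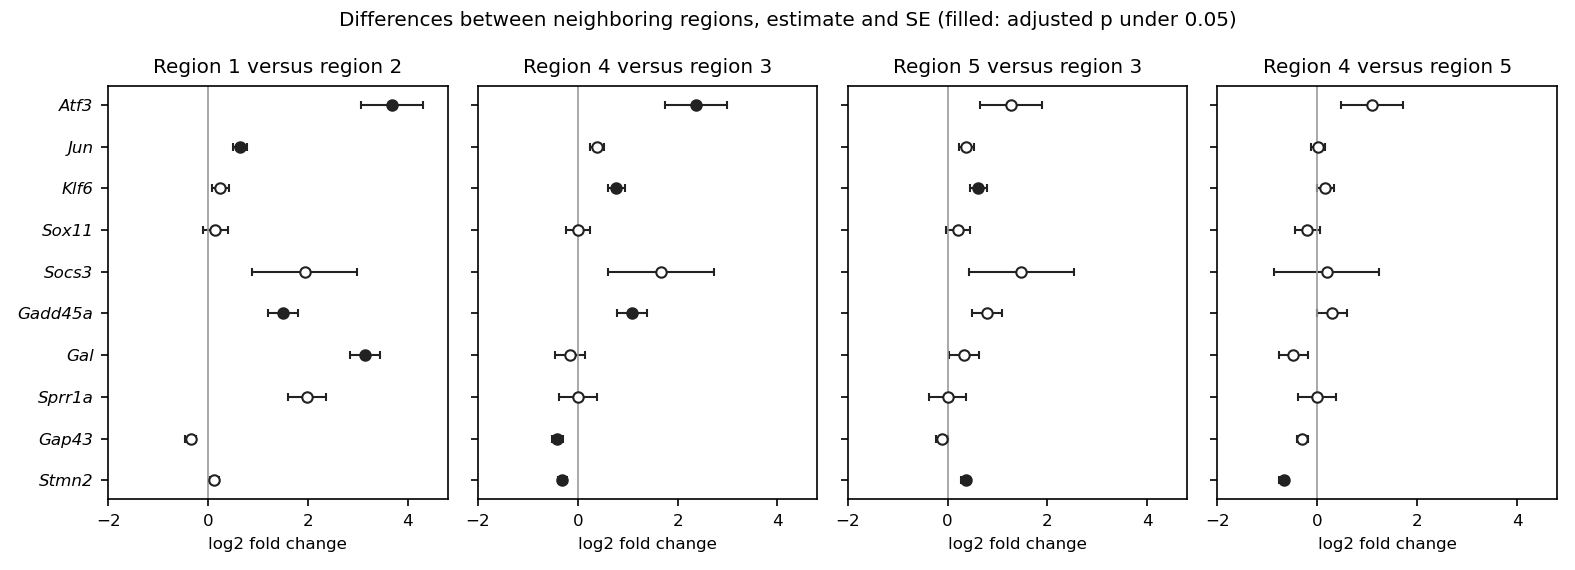
Log2 fold change (x axis) of each gene (y axis) in 4 comparisons between regions, with bars for the SE from the fit on all 20 libraries; filled points had an adjusted p under 0.05, and Sprr1a, for which no test is given in region 1 against region 2, is left open there. Atf3 and Gadd45a lie to the right in regions 1 and 4 against their neighbors, the only filled point of Gal is in region 1 against region 2, and Stmn2 to the left in region 4 against regions 3 and 5.

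Region 4 against region 3 asks how the lesion epicenter differed from the cord rostral to it. Atf3, Klf6 and Gadd45a were higher at the epicenter and Gap43 and Stmn2 lower, 5 of 10 genes called, against 6.78% of all genes called higher, 12.8% called lower and 19.6% in either direction. The median log2 fold change was 0.20 over the 10 genes and -0.02 over all genes. Regions 3 and 4 also differ in cord level, which cannot be told apart from the injury here.

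At the epicenter Atf3 stood at 7.57, 5.56, 5.61 and 2.82 FPKM, against 1.29, 0.811, 1.01 and 0.888 FPKM rostrally. Every epicenter library exceeded every rostral one, with stimulated rat 2 the lowest at the epicenter. Atf3 was 5.17-fold higher (log2 fold change 2.37, SE 0.62, adjusted p = 0.0130). Klf6, a zinc finger factor linked to axon growth capacity, stood at 15.1, 12.4, 11.9 and 9.20 FPKM against a narrow 6.86, 7.07, 7.19 and 6.94 FPKM. Again without overlap, it was 1.71-fold higher (log2 fold change 0.77, SE 0.17, adjusted p = 0.00466). Gadd45a stood at 20.5, 17.8, 18.5 and 9.87 FPKM against 8.55, 7.51, 7.76 and 6.57 FPKM, also without overlap, and was 2.12-fold higher (log2 fold change 1.09, SE 0.30, adjusted p = 0.0184).

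Socs3 stood at 5.74, 4.44, 4.44 and 2.96 FPKM at the epicenter and at 1.74, 1.04, 1.39 and 1.33 FPKM rostrally. The groups did not overlap, yet Socs3 was not called with the SE of 1.06 that its white matter libraries gave the fit (log2 fold change 1.66, adjusted p = 0.279). Fitted on the 12 cord libraries alone, the SE was 0.21 and the adjusted p 0.000489. In that fit 7 of 10 genes were called, with Jun also higher (log2 fold change 0.39, adjusted p = 0.0408), against 31.5% of all genes.

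Both growth cone genes were lower at the epicenter. Gap43 stood at 35.9, 33.5, 41.8 and 29.4 FPKM against 42.7, 55.1, 47.1 and 41.5 FPKM, with a slight overlap through stimulated rat 1 (log2 fold change -0.41, SE 0.11, adjusted p = 0.0176). Stmn2 stood at 51.9, 49.7, 59.0 and 52.2 FPKM against 65.9, 74.1, 62.6 and 61.8 FPKM without overlap (log2 fold change -0.31, SE 0.09, adjusted p = 0.0215). Both were lower in 4 of 4 rats. Gal and Sox11 had log2 fold changes of -0.15 and 0.01, and Sprr1a was listed at 0.1 in all 12 cord libraries. In all, 4 members were higher and 1 lower without overlap, against 28.8% of all genes.

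Of the 6 microglia and macrophage markers 3 were called higher at the epicenter, and their sum was 132 to 270 FPKM there against 59.9 to 89.5 FPKM rostrally. Of the 5 Schwann cell markers 3 were called higher, with sums of 151 to 212 FPKM against 68.7 to 130 FPKM. Of the 6 pan-neuronal markers 5 were called lower, with sums of 792 to 987 FPKM against 1112 to 1382 FPKM. Their part in the results for the 10 genes was not tested. Without stimulated rat 2, 7 of 10 genes were called, against 32.3% of all genes, and in the control rats alone 6, against 21.5%. Leaving out control rat 1 or control rat 2 left 0 called, against 6.41% and 3.44% of all genes, and leaving out stimulated rat 1 left Gap43, Klf6 and Stmn2, against 9.15%. The stimulated rats alone gave 0 calls, and 0.0% of all genes.

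Caudal to the lesion, in region 5, Stmn2 and Klf6 were higher than rostrally, 2 of 10 genes, against 2.77% of all genes called higher and 4.32% called in either direction. Stmn2 reached its highest levels there, at 83.3, 77.5, 86.4 and 92.0 FPKM, all above the rostral values (log2 fold change 0.36, SE 0.09, adjusted p = 0.0300). Klf6 stood at 10.3, 10.1, 9.49 and 13.4 FPKM, also without overlap (log2 fold change 0.61, SE 0.17, adjusted p = 0.0495). Both calls were lost with quantile normalization or upper-quartile scaling, which took the median of all genes from 0.11 to -0.02 and -0.01. Leaving out control rat 1, control rat 2 or stimulated rat 1 also left 0 called, against 0.894%, 0.664% and 0.355% of all genes, and without stimulated rat 2 the adjusted p was 0.0665 for Stmn2 and 0.00639 for Klf6.

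Atf3, Jun, Socs3 and Gadd45a were also above every rostral library in region 5 without being called, at 2.16 to 2.74, 16.9 to 19.9, 2.99 to 4.40 and 12.2 to 14.9 FPKM. That made 6 members higher without overlap, against 20.5% of all genes higher and 25.5% in either direction. On the 12 cord libraries alone 5 genes were called, with log2 fold changes of 1.28 for Atf3, 1.48 for Socs3 and 0.79 for Gadd45a, and adjusted p-values of 0.0117, 0.00346 and 0.0219, against 16.9% of all genes. Without stimulated rat 2 there were 4, Atf3, Klf6, Socs3 and Gadd45a, against 8.13%, and in the control rats alone 0, against 0.0%.

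Several cell markers moved with region 5. Of the 5 Schwann cell markers 4 were called higher than rostrally, with sums of 178 to 388 FPKM against 68.7 to 130 FPKM. Of the 2 motor neuron markers tested other than Isl1, 2 were called higher, and the sums of the list were 36.3 to 39.7 FPKM against 16.8 to 20.9 FPKM. Of the 2 skeletal muscle markers tested other than Ckm, 2 were called lower. Isl1 reached 1 FPKM in region 5 alone and Ckm in region 3 alone, so neither is counted. The microglia and macrophage sum was 119 to 151 FPKM, above every rostral library, with 0 of 6 markers called by limma, and 6 of 6 without stimulated rat 2. Markers of sensory ganglion neurons summed to 1.27 and 1.02 FPKM in region 5 of the control rats and to 8.79 and 16.3 FPKM in that of the stimulated rats, against 1.06 to 1.26 FPKM rostrally. The 4 of them that were tested reached 1 FPKM in region 5 alone, so no call is given for them. Scn10a, a sodium channel of nociceptors, was at the floor of 0.1 in 18 libraries and reached 2.39 FPKM in region 5. Over the 12 cord libraries the ganglion sum had an r of 0.662 with Stmn2 and of 0.263 with Klf6. The part of these markers in the results for the 10 genes was not tested.

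Between epicenter and caudal cord only Stmn2 was called, lower at the epicenter in 4 of 4 rats (log2 fold change -0.67, SE 0.09, adjusted p = 0.00117), 1 of 10 genes against 7.06% of all genes called lower, 0.934% called higher and 7.99% in either direction. Atf3 was higher at the epicenter without overlap (log2 fold change 1.09, SE 0.62, adjusted p = 0.251), as were 1.84% of all genes, and 18.1% did not overlap in either direction. On cord libraries alone its adjusted p was 0.0243, and 2 genes were called against 16.2% of all genes. Without stimulated rat 2 there were 4, Atf3, Klf6 and Gadd45a higher and Stmn2 lower, against 7.21% of all genes, and in the control rats alone Stmn2 only, against 1.32%. Leaving out control rat 1 left 0 called, against 0.0329%, and leaving out control rat 2 or stimulated rat 1 left Stmn2, against 0.145% and 6.57%. Gap43, Gal and Sox11 had log2 fold changes of -0.30, -0.48 and -0.20. Jun, Klf6, Socs3 and Gadd45a had log2 fold changes of 0.01, 0.16, 0.19 and 0.30, with stimulated rat 2 lower at the epicenter for all 4 genes.

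White matter against cord gave calls in both directions among the members, as it did among all genes. Gap43, Jun and Klf6 were called higher in the 8 white matter libraries and Gal, Atf3 and Gadd45a lower, 6 of the 8 genes other than Sprr1a and Sox11. This share is near that of all genes, of which 72.2% were called, 25.0% higher and 47.1% lower. The median log2 fold change of all genes was -0.18, and -0.04 after quantile normalization. The 6 calls were also made with quantile normalization and upper-quartile scaling. Without stimulated rat 2 all 8 were called, against 77.3% of all genes. In the control rats alone 5 were called, with Jun and Klf6 lost and Socs3 called lower, against 69.8%, and in the stimulated rats alone 4, with Atf3 and Gadd45a lost, against 44.6%. Leaving out control rat 1, control rat 2 or stimulated rat 1 left the 6 calls, against 62.3%, 63.9% and 64.4% of all genes.

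Sox11, a factor of immature neurons, stood at 1.16 to 2.27 FPKM (median over 4 libraries 1.51) in region 1 and 1.26 to 1.65 FPKM (median 1.38) in region 2. In the cord it ran from 0.357 to 0.772 FPKM, below every white matter library. It reached 1 FPKM in white matter alone, so no test is given. Gap43 was also separate, at 56.1 to 93.6 FPKM against 29.4 to 55.1 FPKM (log2 fold change 0.87, SE 0.07, adjusted p = 2.80e-09). Sprr1a ran from 0.140 to 2.02 FPKM in white matter, and no fold or test is given against libraries listed at 0.1. Gal showed the reverse, at 0.147 to 2.47 FPKM against 3.16 to 7.49 FPKM (log2 fold change -2.93, SE 0.19, adjusted p = 7.10e-11). Gap43 and Gal did not overlap between the tissues, nor did 27.1% of all genes.

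The other 6 genes overlapped between the tissues. Jun and Klf6 had log2 fold changes of 0.44 and 0.36 (SE 0.10 and 0.11), and Gadd45a and Atf3 of -0.87 and -1.65 (SE 0.20 and 0.40). Atf3 moved to -2.40 without stimulated rat 2, and was -0.64 on log2(FPKM + 1). Socs3 and Stmn2 had log2 fold changes of -0.81 (SE 0.68, adjusted p = 0.289) and -0.08 (SE 0.06, adjusted p = 0.197). Socs3 moved further without stimulated rat 2, to -2.12 (SE 0.22, adjusted p = 1.12e-06).

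Ordered by their mean log2 level, the regions differed from gene to gene. Atf3 ran from the epicenter through regions 1, 5 and 3 to region 2. Only its step between regions 3 and 2 was called (adjusted p = 0.00420). Gadd45a ran from the epicenter through regions 5, 1 and 3 to region 2, with again only the last step called (adjusted p = 0.00928), and no step was called for Socs3. For Jun, region 1 stood above all others, the next being the epicenter (adjusted p = 0.00137). For Gap43 the step from region 1 to region 3 was the only one called. In Gal regions 5, 3 and 4 were not told apart, and lay above region 1 (adjusted p = 0.00296), which lay above region 2. Klf6 ran from region 1 through regions 4, 2 and 5 to region 3 and Stmn2 from region 5 through regions 3, 1 and 2 to region 4, and the step between regions 5 and 3 was the only one called in each. Over the 32 steps of these 8 genes, 8 were called with all rats and 15 without stimulated rat 2, 7 of them in both. The called step of Stmn2 was the one lost. Without that rat the direction of 4 steps turned, so these orders are not firm. They were region 1 over 5 for Atf3 (log2 difference -0.26) and region 1 over 4 for Klf6 (-0.11). The others were region 1 over 3 for Socs3 (-0.03) and region 2 over 5 for Jun (-0.04).

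Stimulated against control rats, the comparison the study was built for, gave no call among the 10 genes in any region by limma with all 4 rats. Of all genes, 0.0% were called in regions 1 to 4 and 0.0197% in region 5, 0.00657% higher and 0.0131% lower. At an unadjusted p under 0.05 there were 3, 2, 1, 1 and 0 members in regions 1 to 5, and 828, 215, 522, 341 and 546 genes in all. With 2 rats per group an exact two-sided permutation test cannot give a p below 0.333, so single values could not pass it.

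In region 1, under the active electrodes, Atf3 stood at 1.42 and 1.46 FPKM in the control and 3.32 and 6.68 FPKM in the stimulated rats, a log2 difference of 1.71 (SE 0.40, adjusted p = 0.712). Gadd45a stood at 8.41 and 7.45 against 12.0 and 17.9 FPKM, a log2 difference of 0.89 (SE 0.24), Klf6 at 11.6 and 11.9 against 13.0 and 18.4 FPKM, and Socs3 at 1.08 and 0.912 against 2.42 and 39.2 FPKM. For these 4 genes both stimulated rats were above both controls, and stimulated rat 2 was the highest. Sprr1a went the other way, at 1.56 and 2.02 against 1.18 and 0.799 FPKM, a log2 difference of -0.87 (SE 0.30, adjusted p = 0.712). The groups did not overlap in these 5 genes, nor in 40.6% of all genes. Without stimulated rat 1, leaving a lone rat assumed to vary like the others, Socs3 alone was called (log2 difference 5.31, adjusted p = 0.0343), against 1.5% of all genes. Without stimulated rat 2 the log2 differences were 1.20 for Atf3 (SE 0.17, adjusted p = 0.448), 1.29 for Socs3, 0.60 for Gadd45a, 0.15 for Klf6 and -0.59 for Sprr1a, with 0 members called, against 0.0986% of all genes. The microglia and macrophage sums of the same libraries were 86.8 and 72.9 FPKM in the control and 121 and 216 FPKM in the stimulated rats, whose part was not tested.

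In region 2, in the hemisphere without electrodes, Jun stood at 17.1 and 14.0 FPKM in the control and 21.4 and 21.8 FPKM in the stimulated rats, a log2 difference of 0.48 (SE 0.13, adjusted p = 0.949). Jun, Stmn2 and Sox11 were higher without overlap, against 27.0% of all genes in either direction. The log2 differences of Socs3 (2.34, SE 2.11), Atf3 (1.56, SE 1.37) and Gadd45a (0.75, SE 0.53) came from stimulated rat 2, since stimulated rat 1 lay within or near the controls. Leaving out stimulated rat 2, they were -0.42, -0.24 and 0.08, that of Jun was 0.47, and 0 members were called, against 0.0657% of all genes. Without stimulated rat 1, which leaves stimulated rat 2 as a lone rat assumed to vary like the controls, Atf3 was the 1 member called (log2 difference 3.37, SE 0.26, adjusted p = 0.0471), against 3.6% of all genes. The difference between the effects in regions 1 and 2, tested within rats, gave 0 calls among the members and 0.0% of all genes, with adjusted p-values of 0.884 to 0.989, and 575 genes at an unadjusted p under 0.05.

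In the cord, the groups did not overlap for Gal in regions 3 and 4 and for Stmn2 in regions 3, 4 and 5. In region 3 Gal stood at 6.28 and 6.81 FPKM in the control and 4.42 and 3.16 FPKM in the stimulated rats (log2 difference -0.81, SE 0.20, adjusted p = 0.956). At the epicenter it stood at 5.73 and 5.07 against 3.43 and 3.93 FPKM (log2 difference -0.55, SE 0.17, adjusted p = 1), and caudally at 7.10 and 6.94 against 4.00 and 7.49 FPKM. The stimulated rats were thus lower in regions 3 and 4, while in region 5 stimulated rat 2 was the highest of all. At the epicenter Klf6 and Socs3 were also lower and Stmn2 higher without overlap, as 20.2% of all genes were in either direction. For Socs3 the gap was slight, with stimulated rat 1 at 4.440 FPKM and control rat 2 at 4.441 FPKM. In regions 3 and 5 the shares without overlap were 29.9% and 24.6%, with Gal and Stmn2 lower in region 3 and Stmn2 higher in region 5, where the stimulated rats also held the higher sums of sensory ganglion markers given above. The Gap43 differences in the cord were -0.13, 0.02 and -0.01 in regions 3, 4 and 5.

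**Figure D3:**
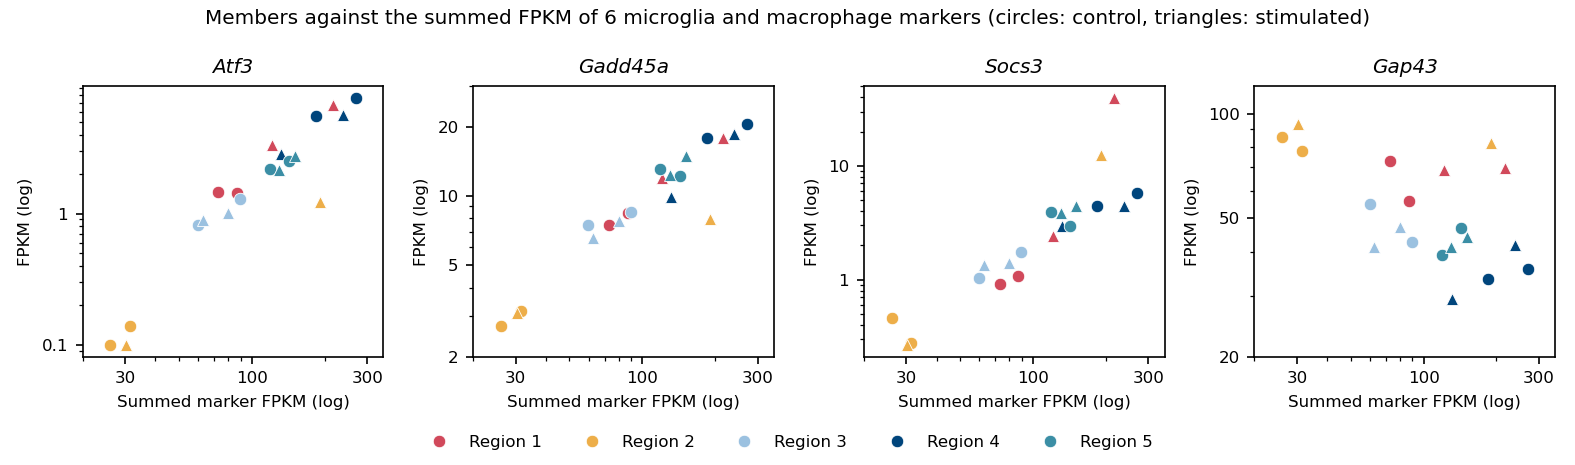
FPKM of Atf3, Gadd45a, Socs3 and Gap43 (y axes, log) against the summed FPKM of 6 microglia and macrophage markers in the same library (x axes, log), colored by region, with circles for control and triangles for stimulated rats. Atf3 and Gadd45a rise along the marker sum over all regions, apart from the region 2 triangle at 191 FPKM. Gap43 tends to fall along it, with Pearson's r of log2 values of -0.554 over the 20 libraries and -0.853 without stimulated rat 2.

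Across the 20 libraries the stress and injury genes followed the sums of several cell markers, among them the microglia and macrophage sum. Pearson's r of log2 values was 0.947 for Atf3, 0.947 for Gadd45a and 0.901 for Socs3, and within the 12 cord libraries 0.984, 0.961 and 0.933. For Klf6 and Jun it was 0.924 and 0.887 in the cord, 0.931 and 0.784 in white matter, and 0.532 and 0.392 over all libraries. Fibroblast markers gave 0.893, 0.919 and 0.818 for Atf3, Gadd45a and Socs3 over the 20 libraries, astrocyte markers 0.841, 0.875 and 0.678 and Schwann cell markers 0.669, 0.730 and 0.461. Within the 8 white matter libraries these 3 lists gave 0.964 to 0.972 for Atf3 and Gadd45a, and the microglia and macrophage sum 0.926 and 0.935. For Gal the astrocyte, Schwann cell and fibroblast sums gave 0.768, 0.889 and 0.815 in white matter, and 0.128, 0.0427 and 0.138 in the cord. Its r with the microglia and macrophage sum was 0.674 in white matter and 0.0143 in the cord. Without stimulated rat 2 these were 0.978 and -0.367. With the pan-neuronal sum, r over the 20 libraries was negative, at -0.757 for Atf3, -0.711 for Gadd45a and -0.697 for Socs3. Gap43 and Stmn2 followed the pan-neuronal sum in the cord, with r of 0.895 and 0.849, but not in white matter, where r was 0.364 and -0.697 and that of Stmn2 with the microglia and macrophage sum 0.741. Gap43 had an r of 0.922 with the cortical neuron sum over all libraries and of -0.209 within white matter. Over the 15 libraries without stimulated rat 2, r with the microglia and macrophage sum was 0.978 for Atf3, 0.989 for Gadd45a and 0.958 for Socs3, and over the 6 white matter libraries Stmn2 had r of -0.266 with the pan-neuronal sum. These values describe libraries that share rats and regions, and which cells made the transcripts was not measured.

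Correlations of the members among themselves rested in part on stimulated rat 2. After the mean of each region was subtracted, r over the 20 libraries was 0.957 between Atf3 and Gadd45a, 0.925 between Atf3 and Socs3, 0.899 between Klf6 and Gadd45a and 0.848 between Atf3 and Klf6. Sprr1a, an effector usually listed beside Atf3, ran against them, with -0.950 to Socs3 and -0.917 to Atf3. Its spread comes from the 8 white matter libraries alone, where stimulated rat 2 was lowest for Sprr1a and highest for Socs3 and Atf3. Gap43 and Stmn2 had r of 0.57 with each other. Over the 15 libraries without that rat, r was 0.887 between Atf3 and Gadd45a, 0.707 between Atf3 and Socs3, 0.424 between Klf6 and Gadd45a, 0.459 between Atf3 and Klf6, -0.803 between Sprr1a and Socs3, -0.593 between Sprr1a and Atf3 and 0.707 between Gap43 and Stmn2.

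**Figure D4:**
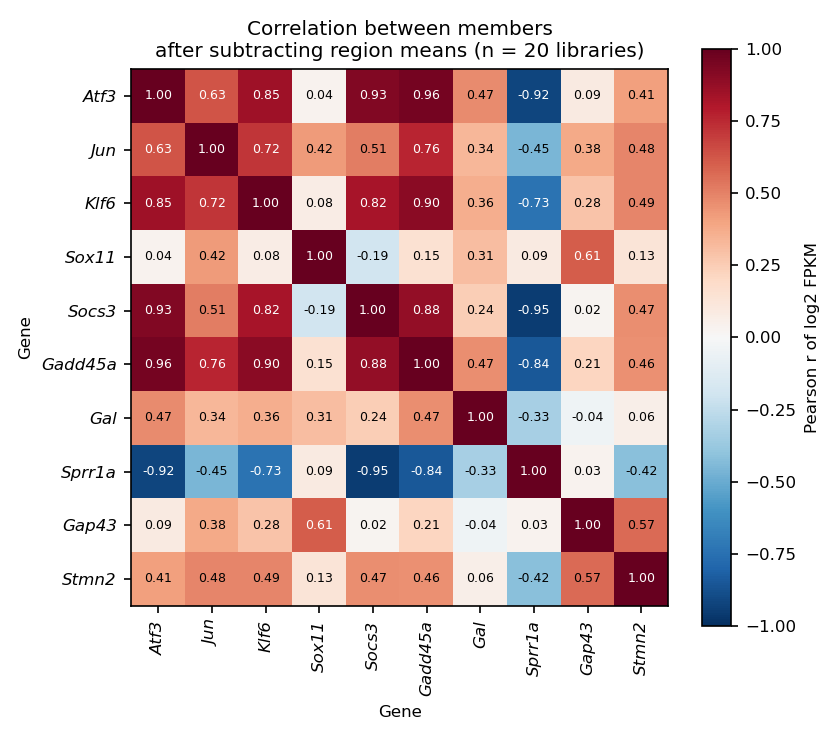
Pearson's r between the log2 FPKM of each pair of genes over the 20 libraries after the mean of each region was subtracted, from -1 (blue) to 1 (red). Atf3, Klf6, Socs3 and Gadd45a form a red block with Jun less tightly joined, in which Klf6 falls to 0.459 with Atf3 without stimulated rat 2, and Sprr1a is blue against Socs3 (-0.95) and Atf3 (-0.92).

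Among all genes tested, those most like each member over the 20 libraries were listed by Pearson's r of log2 FPKM. For Atf3 they were Clec7a (0.986), a receptor of phagocytes, Gadd45a (0.981) and the metalloproteinase Mmp14 (0.977). For Gadd45a they were the lysosomal protease Ctsl (0.985), Atf3 and Emp3 (both 0.981). Socs3 was nearest Ptx3 (0.970), Il21r (0.966) and Zfp36 (0.965), and Klf6 nearest Ttc7a (0.958), Arhgap25 (0.936) and Hgf (0.931). For Gal, the endopeptidase gene Ecel1, itself induced by nerve injury, came first (0.985), before Olig2 and Adgrg6 (both 0.961). Gap43 was nearest Chtf18 (0.969), Sox11 nearest Mxi1 (0.968), Sprr1a nearest AC118434.1 (0.931), Jun nearest Ptn (0.919) and Stmn2 nearest Slc2a6 (0.875). For the first-named gene of each member, r without stimulated rat 2 ran from 0.891 for Jun and Ptn to 0.992 for Atf3 and Clec7a.

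Other genes of the regeneration program were read from lists, and their counts stand beside 6.86% higher and 1.76% lower of all genes in region 1 against 2, 6.78% and 12.8% in region 4 against 3, 2.77% and 1.55% in region 5 against 3, 0.934% and 7.06% in region 4 against 5, and 25.0% and 47.1% in white matter against cord. Of 15 further transcription factors, 0 were called between regions 1 and 2 and 1 between regions 4 and 3, Myc, higher at the epicenter (log2 fold change 1.13). White matter against cord gave 2 higher, led by Junb (1.89), and 5 lower, led by Myc (-0.85). Of 17 other effectors tested, 4 were called higher in region 1 than in region 2, led by Ecel1 (log2 fold change 2.64), and 0 lower. Ecel1 averaged 0.917 FPKM (SD 0.237, n = 4) in region 1 and 0.154 FPKM (SD 0.0709, n = 4) in region 2. At the epicenter 2 effectors were higher than rostrally, led by the protease receptor Plaur (2.36), and 5 lower, led by the neuropeptide gene Nts (-1.45). Region 5 against region 3 gave 2 higher, led by Itga7 (0.76), and 1 lower, Cacna2d1 (-0.55), and region 4 against region 5 gave 3 lower, led by Tubb3 (-0.76). White matter against cord gave 5 higher, led by Cacna2d1 (1.86), and 7 lower, led by Hspb1 (-3.18), of the 15 that reached 1 FPKM in both tissues. The neuropeptide gene Vip, at 13.8 and 17.4 FPKM on average in regions 1 and 2, did so in white matter alone and Nts in cord alone. In the fit that leaves out stimulated rat 2, 4 of the 15 transcription factors and 7 of the 17 effectors were called higher in region 1 than in region 2. There 0 and 1 were called lower. At the epicenter 6 and 4 were called higher than rostrally, and 0 and 6 lower. The shares of all genes, called in either direction, were 24.2% and 32.3% in these 2 comparisons.

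Socs3 acts on signaling through the gp130 receptor. Of 12 genes of that pathway tested, 3 were higher at the epicenter than rostrally, led by Il6r (log2 fold change 1.22), and 2 were higher in region 5, led by Cntf (0.88). Between regions 1 and 2 Jak1 was called (0.33), and between white matter and cord 1 was higher, Jak2 (0.39), and 5 lower, led by Cntf (-2.15), of the 10 that reached 1 FPKM in both tissues. In that fit without stimulated rat 2, 6 of the 12 were called higher in region 1 than in region 2 and 7 higher at the epicenter than rostrally. The first count still includes Il6 and Osm, which reached 1 FPKM in region 2 alone and in region 1 alone. In these comparisons 0 and 1 of the 12 were called lower, and 24.2% and 32.3% of all genes were called in either direction. Of 10 paralogs of the members that reached 1 FPKM in both tissues, 4 were higher in white matter, led by Junb, and 2 lower, led by Gadd45b (-0.43), while Stmn3 was lower at the epicenter than in regions 3 (-0.61) and 5 (-0.57), like Stmn2. None of 11 paralogs was called between regions 1 and 2 by limma, and 1 was without stimulated rat 2. The galanin receptor gene Galr1 was the only one of 3 tested, through cord libraries alone, and was lower in regions 4 and 5 than in region 3 (-0.82 and -0.85). No gene of these lists was called for stimulation in any region, against the 0.0% to 0.0197% of all genes given above.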

How the data were processed

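RNA was depleted of ribosomal RNA and made into TruSeq Stranded Total RNA libraries, read as 51 bp ends. Per the submitters' processing notes, reads were aligned with TopHat2 2.1.0 and expression was estimated with Cufflinks 2.2.1. The genome build was Rnor6, and the annotation version is not given in the sources used here. The authors deposited FPKM values per gene for the 20 libraries, with values under 0.1 raised to 0.1. The study lists a read number for each library, but FPKM keeps no read number per gene, so no counting intervals are given, and precision is the spread between 4 rats, 2 per group. Every column was matched to a sample by its title, and 0 columns were without one. Genes carry the symbols of the table, and genes that overlap or lie antisense to another are uncertain, since the strand setting used in counting is not given.

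FPKM values were log2-transformed, and genes with at least 1 FPKM in any of the 20 libraries were tested. Regions were compared with limma 3.58.1 in R 4.3.3 (lmFit, eBayes with trend), in 1 model of the 20 libraries that gives each region a mean. For stimulation it was fitted on the 4 libraries of each region, and for the difference of effects on differences within rats. Adjustment over the 15210 genes followed Benjamini and Hochberg, and the threshold was 0.05. An adjusted p without another fit named comes from these. Summaries, promoter searches and plots used Python 3.11.15, pandas 2.3.3, numpy 2.4.6 and matplotlib 3.10.9. The steps were tested on simulated data.

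By their titles, each rat gave 1 library per region, so regions are paired by rat, and these libraries' deviations from the region means correlated (mean r of 0.588 for regions 1 and 2, 0.208 for 4 and 3, 0.125 for 5 and 3 and 0.028 for 4 and 5). Stimulated and control rats share only a number. Alternatives were other offsets, filters and scalings, eBayes without a trend, a block for the replicate number, a single model of all libraries and leaving out each rat, and, chosen after seeing the data, fits on 1 group of rats, on the libraries of 1 tissue and with crossed pairs, counts without the members that passed the filter through 1 group of a comparison alone, and correlations, region orders and list counts without stimulated rat 2. The members, lists and markers were chosen with earlier results of these data known. The genes named are the 10 members, the list gene with the largest called change in each direction of a comparison, and up to 3 genes most correlated with each member. Sox4, Slc18a3, Pecam1 and Myh2 of the lists were not matched by symbol. Sequences are from RefSeq, GRCr8, which is a later build than that of the table, so the coordinates given are those of the promoter windows.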

Additional observations from a re-analysis of the deposited data

Results flagged for a closer look

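Groups of 4 libraries, a member in a region, were searched for a library far from the other 3, by the ratio of its gap to the whole range. Of 47 groups tested, chance alone passes the 95% critical value of Dixon's test in about 1 in 20. It was passed 6 times, and in 5 of the 6 the library was stimulated rat 2 in region 2. It was highest for Atf3 (0.868), Socs3 (0.857), Gadd45a (0.858) and Klf6 (0.846) and lowest for Sprr1a (0.865). The same library held 191 FPKM of microglia and macrophage markers, against 26.0 to 31.4 FPKM in the other 3, and its part in these values was not tested. In region 5, stimulated rat 1 was lowest for Gal (0.879).

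For some genes the stimulated rats lay above both controls in 1 region and below both in another. The stimulation effect on the log2 scale differed between regions 1 and 4 by 0.786 for Klf6 and 3.774 for Socs3. Tested within rats over all genes, both differences had an adjusted p of 0.515 by limma. In region 1, stimulated rats 1 and 2 stood at 2.42 and 39.2 FPKM for Socs3 and at 13.0 and 18.4 FPKM for Klf6. Without stimulated rat 2, the Socs3 effect in region 1 was 1.29 instead of 3.30. In region 4, Socs3 of stimulated rat 1 lay barely below that of control rat 2, at 4.440 and 4.441 FPKM. Stmn2 was higher in the stimulated rats in regions 2, 4 and 5 and lower in region 3, so that the effect differed by 0.418 between regions 2 and 3, by -0.2952 between 3 and 4 and by -0.3176 between 3 and 5. These 3 differences were not tested.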

How the results depend on the processing

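The replicate block, which is the rat for regions and the number for stimulation, left the counts of members called as without it. They were 6 of 8 for white matter against cord, 4 of 9 for region 1 against 2 and 5 for region 4 against 3. For region 4 against 5 the count was 1, for region 5 against 3 it was 2 and for stimulation 0 in each region. Stimulated and control rats of the same number deviated together only in region 4 (r = 0.321, from -0.213 to -0.0974 in the others), and crossed pairs gave 0 calls for stimulation. These and the next counts leave out Sprr1a in region 1 against 2, and Sprr1a and Sox11 in white matter against cord. The results of single genes given further below include both genes. Leaving out each rat gave 1 to 7 members called for region 1 against 2, 0 to 7 for region 4 against 3 and 0 to 4 for region 4 against 5. It gave 0 to 4 for region 5 against 3 and 6 to 8 for white matter against cord. In that order, the shares of all genes called ran from 0.171% to 24.2%, 3.44% to 32.3%, 0.0329% to 7.21%, 0.355% to 8.13% and 62.3% to 77.3%. The stimulated rats alone gave 0 in each of the 4 comparisons between neighboring regions, against at most 0.00657% of all genes, and the control rats alone 0 for region 5 against 3. The libraries of 1 tissue gave 0 for region 1 against 2, 2 for region 4 against 5 and 5 for region 5 against 3. For region 5 against 3, log2(FPKM + 1), no filter and eBayes without a trend gave 1 each, and quantile normalization and upper-quartile scaling 0 each. Of 496 alternative values for 34 results of single genes, 416 stayed on the same side of the threshold with the same sign, 64 lost the call, 31 of them on leaving out a rat, and 14 gained it. Socs3 in region 4 against 5 (0.19) ran from -0.066, without control rat 1, to 0.44, without stimulated rat 2, and was -0.19 in the stimulated rats and 0.56 in the control rats alone, and the cause was not tested. With 2 rats per group, small differences by stimulation are beyond these data, and the read numbers behind single values are not in the table.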
